A study of Homo sapiens with 24 samples.

Results

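The transcripts of 10 Krüppel-like factors, KLF2, KLF3, KLF4, KLF5, KLF6, KLF7, KLF10, KLF12, KLF13 and KLF17, were followed through 24 RNA-seq libraries of human embryonic stem cells. The 10 were chosen by their symbols with earlier results of these data known, and other KLF genes were kept in a separate list. All 10 were found among the 60671 genes that both deposited count tables list. Polyadenylated RNA was sequenced from H1 and H9, a pair of established human embryonic stem cell lines, in 8 groups of 3 libraries. The 18 H1 libraries, all listed with doxycycline, were primed cells with a CARHSP1 knockdown or a nontargeting control, naive cells with a ZNF8 knockdown or a nontargeting control, and day 2 ectoderm with a ZIC2 knockdown or a nontargeting control. The 6 H9 libraries were primed and naive cells with no knockdown and no doxycycline listed. All 24 libraries carry 1 growth protocol in the labels. The labels name no separate naive medium, no method of knockdown and no number of clones.

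KLF proteins bind GC-rich and CACCC-type DNA through zinc fingers at their carboxyl end, and their other parts decide whether a gene is activated or repressed. KLF2, KLF4 and KLF5 are known for holding pluripotent stem cells in the naive state, which resembles the preimplantation epiblast, whereas primed cells resemble the epiblast after implantation. KLF17 is a marker of human naive cells and of the human preimplantation epiblast.

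Library totals ran from 6756704 to 20773963 counts. The targeted transcripts were at 19.1 ± 1.47 against 149 ± 2.45 CPM (counts per 1e6 of the library, scaled by edgeR's TMM factors over all 24 libraries; SD, n = 3) for CARHSP1 and at 267 ± 4.2 against 555 ± 61.7 CPM for ZIC2. ZNF8 was at 16.3 ± 1.3 CPM in the libraries labelled ZNF8 knockdown and at 20 ± 3.04 CPM in their controls, a log2 change of -0.32 that did not pass (edgeR quasi-likelihood test, Benjamini-Hochberg adjusted p = 0.0664). The summed level of 8 naive markers was 255 to 264 CPM in the naive H1 controls, 151 to 167 CPM in the ZNF8 knockdown, 101 to 108 CPM in naive H9, and at most 34.5 CPM in any primed library. In the ectoderm controls the summed level of 8 neural ectoderm markers was 691 to 816 CPM, against 28.4 to 37.2 CPM in the primed controls, with HES5 and RAX at 0.

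KLF17 (ENSG00000171872, GRCh38 chr1:44118850-44135140, plus strand) was the member most restricted to naive H1. It was at 10.6, 12 and 9.77 CPM in the 3 naive H1 controls, and no read was counted in any of the 15 primed and ectoderm libraries of both lines. In naive H9 it was at 0, 0.11 and 0.094 CPM, 2 counts in all, with a 95% exact Poisson interval of 0.00781 to 0.233 CPM that covers counting error only. KLF17, whose product is expressed in the human epiblast before implantation, was thus present in naive H1 and at the limit of detection in naive H9. A processed pseudogene on the opposite strand lies inside KLF17 and ran from 0 to 1.04 CPM over all libraries. Against 3 counts over the primed controls, the level that 0 counts allow, KLF17 was at least 116-fold higher in naive H1, with no p given because it entered the test only through its naive counts. In bulk RNA, fewer cells that express a gene and less RNA per cell cannot be told apart.

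KLF2 (ENSG00000127528, chr19:16324817-16327874, plus strand), an activator best known from endothelium and lymphocytes and a classical factor of the mouse naive network, followed the same order at a lower count. Its levels were 5.66, 6.14 and 7.51 CPM in the naive H1 controls and 0.149, 0 and 0.0898 CPM in the primed H1 controls. The groups did not overlap, and the ratio of their counts, 206 against 3, was 68.2 with a 95% counting interval of 23 to 333, again with no p given because of how it entered the test. In naive H9 KLF2 was at 1.33, 0.439 and 0.564 CPM, and no primed H9 library held a count. KLF2 was thus at least 10.5-fold higher in naive than in primed H9 (25 counts against the 3 that 0 allows), with no test because it did not pass the low-count filter there. KLF2P1, a pseudogene named for KLF2, reached 0.848 CPM in single libraries, so the lowest KLF2 values are uncertain.

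KLF4 (ENSG00000136826, chr9:107484852-107490482, minus strand), among the original reprogramming factors, rose between the primed and the naive state in both lines. It was at 98.8, 90.4 and 96.7 CPM in the naive H1 controls and at 4.75, 8.78 and 5.48 CPM in the primed H1 controls. No naive H1 value came near a primed one, and the log2 change was 3.97 ± 0.12 (SE; edgeR adjusted p = 2.87e-40). In H9 KLF4 was at 17.4, 18.7 and 16.9 CPM in naive and at 4.61, 2.62 and 5.06 CPM in primed cells, a log2 change of 2.06 ± 0.19 (edgeR adjusted p = 2.9e-08).

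KLF5 (ENSG00000102554, chr13:73054976-73077542, plus strand), an activator needed for the inner cell mass and trophectoderm of the mouse embryo, had the largest change of the 8 members tested in H9. In H1 its change was the largest after those of KLF2 and KLF17. The naive H1 controls held 199, 193 and 183 CPM and the primed H1 controls 8.84, 5.32 and 10.1 CPM. That was a log2 change of 4.49 ± 0.09 (edgeR adjusted p = 1.29e-48). Naive H9 held 10.5, 13.4 and 14.8 CPM and primed H9 1.81, 2.42 and 2.11 CPM, a log2 change of 2.61 ± 0.21 (edgeR adjusted p = 5.76e-09). The lowest naive H9 library lay only just above the highest primed H1 library, whereas the naive H1 libraries were more than an order of magnitude above it.

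**Figure D1:**
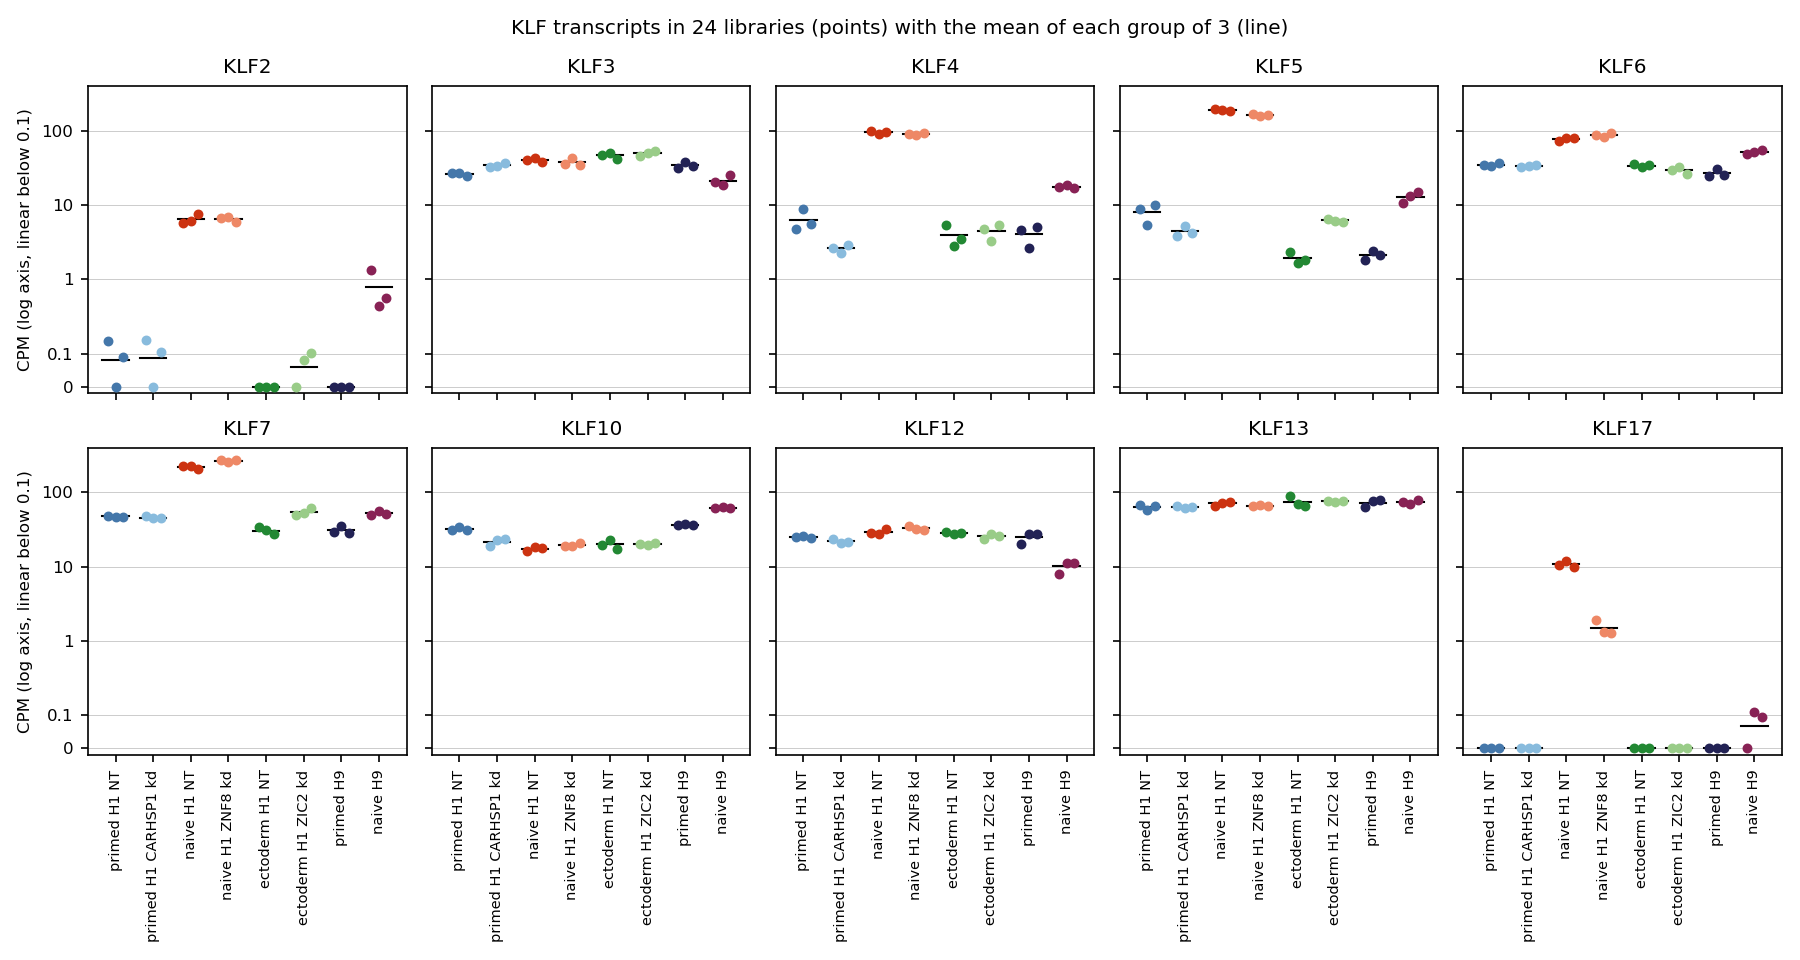
Level of each of the 10 KLF members (CPM, log axis that is linear below 0.1) in every library of the 8 groups, 1 point per library. The naive H1 groups stand above all others for KLF2, KLF4, KLF5, KLF6, KLF7 and KLF17, and naive H9 stands above all others for KLF10.

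The sequence before the start of these 4 genes is shown because their transcripts carried the naive pattern and because KLF proteins bind CACCC-type sites. The 250 bases before each start, 5′ to 3′ on the gene's strand, are from RefSeq on GRCh38.p14, with every CACCC and its reverse complement GGGTG in capitals. They are chr1:44118571-44118820 on the plus strand for KLF17, chr9:107489770-107490019 on the minus strand for KLF4, chr19:16324576-16324825 on the plus strand for KLF2, and chr13:73054726-73054975 on the plus strand for the first of the 2 listed starts of KLF5. The RefSeq start of KLF4 lies inside the gene span given above, so its window does too.
KLF17: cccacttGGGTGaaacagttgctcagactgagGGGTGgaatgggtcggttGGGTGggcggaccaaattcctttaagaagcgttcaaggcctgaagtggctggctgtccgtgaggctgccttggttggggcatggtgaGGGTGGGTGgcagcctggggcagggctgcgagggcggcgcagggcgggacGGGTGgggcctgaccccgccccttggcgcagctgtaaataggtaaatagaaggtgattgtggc
KLF4: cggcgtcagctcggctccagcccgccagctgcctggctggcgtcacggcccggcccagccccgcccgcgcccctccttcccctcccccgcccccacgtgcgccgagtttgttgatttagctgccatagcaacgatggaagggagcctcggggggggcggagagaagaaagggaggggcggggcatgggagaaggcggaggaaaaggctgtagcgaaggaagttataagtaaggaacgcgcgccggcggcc
KLF2: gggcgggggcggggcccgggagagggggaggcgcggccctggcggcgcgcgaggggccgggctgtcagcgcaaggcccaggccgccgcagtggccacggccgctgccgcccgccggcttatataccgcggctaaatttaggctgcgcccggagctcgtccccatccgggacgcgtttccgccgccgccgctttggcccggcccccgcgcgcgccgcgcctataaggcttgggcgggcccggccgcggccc
KLF5: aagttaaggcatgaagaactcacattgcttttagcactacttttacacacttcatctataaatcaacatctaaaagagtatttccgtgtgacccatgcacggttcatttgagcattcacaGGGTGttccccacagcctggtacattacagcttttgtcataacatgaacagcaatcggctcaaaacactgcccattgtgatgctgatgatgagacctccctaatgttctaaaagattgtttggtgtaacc
The KLF17 window held 6 matches on both strands together, all of them GGGTG, with 2 of them overlapping in 1 base. At least 1 match was in 54.7% of the 35116 human promoter windows of that length, and 6 or more in 0.384%. The KLF5 window held 1 match, and the KLF4 and KLF2 windows none. The GC box CCGCCC or GGGCGG, the site of SP-type factors, was in 42.6% of all windows. It was found 4 times each in the KLF17, KLF4 and KLF2 windows, and not in the KLF5 window. Of all windows, 7.63% held it 4 or more times. G and C made up 80% of the KLF2 window, 69.2% of the KLF4 window, 62.8% of the KLF17 window and 40.8% of the KLF5 window, against a median of 58% over all windows. The window of the second listed KLF5 start, chr13:73058755-73059004, is not printed and differed from the first. It held 2 CACCC or GGGTG matches, 2 GC boxes and 70.8% G and C. RefSeq held windows for 8 of the 10 members and 15 starts, and 5 of those 8 members had at least 1 CACCC or GGGTG. These letter matches describe the windows and show no binding.

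KLF7 and KLF6, activators with related amino-terminal domains, were higher in the naive state of both lines. KLF7 (ENSG00000118263, chr2:207074137-207167267, minus strand), known for its part in neuron outgrowth, was at 224, 226 and 208 CPM in the naive H1 controls and at 48.5, 47.3 and 46.7 CPM in the primed ones, a log2 change of 2.19 ± 0.06 (edgeR adjusted p = 2.32e-41). In H9 it was at 49.7, 56.3 and 50.9 CPM in naive and 29, 35 and 28.5 CPM in primed cells, a log2 change of 0.76 ± 0.11 (edgeR adjusted p = 1.65e-05). Naive H9 thus reached only the KLF7 level of primed H1.

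KLF6 (ENSG00000067082, chr10:3775996-3785281, minus strand), an early-response gene, was at 73.7, 80.5 and 80 CPM in naive and 34.2, 33.6 and 36.7 CPM in primed H1 controls. In H9 the values were 49, 51.9 and 54.5 CPM in naive and 24.7, 31 and 25.1 CPM in primed cells. The groups did not overlap in either line, and the log2 changes were 1.14 ± 0.08 in H1 (edgeR adjusted p = 3.87e-20) and 0.94 ± 0.12 in H9 (edgeR adjusted p = 1.62e-06).

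Among the members known as repressors, KLF10 and KLF3 changed in opposite directions in the 2 lines. KLF10 (ENSG00000155090), a TGF-beta-induced repressor, was at 16.2, 18.3 and 17.8 CPM in naive and 31.5, 33.9 and 30.7 CPM in primed H1 controls, and its log2 level fell by 0.89 ± 0.12 (edgeR adjusted p = 7.55e-10). In H9 it was at 61.3, 64.3 and 61.1 CPM in naive and 36.2, 37.9 and 36.2 CPM in primed cells, a rise of 0.75 ± 0.10 on the log2 scale (edgeR adjusted p = 2.97e-06). Over the 8 group means KLF10 was lowest in the naive H1 controls and highest in naive H9, and naive and primed libraries overlapped in neither line.

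KLF3 (ENSG00000109787, chr4:38664196-38701042, plus strand), which represses through the corepressor CTBP, went the other way. In H1 it was at 40.2, 43.2 and 38.4 CPM in naive and 27.3, 27 and 24.4 CPM in primed controls, a log2 change of 0.62 ± 0.10 (edgeR adjusted p = 1.96e-07). In H9 it was at 20.3, 18.7 and 25.1 CPM in naive and 31.3, 38.3 and 33.5 CPM in primed cells, a log2 change of -0.69 ± 0.13 (edgeR adjusted p = 0.000247). KLF3-AS1, which overlaps the start of KLF3 on the other strand, was at 0.0481 to 2.9 CPM over all libraries, and the strand setting of the counting is unknown.

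KLF12 (ENSG00000118922, chr13:73686089-73995056, minus strand), also a CTBP-binding repressor, was at 7.89, 11.2 and 11.1 CPM in naive and 20.3, 27.8 and 27.3 CPM in primed H9, and its log2 level fell by 1.33 ± 0.17 (edgeR adjusted p = 1.87e-06). In H1 it was at 28.5, 27.1 and 32.1 CPM in naive and 25.2, 26.2 and 24 CPM in primed controls, a log2 difference of 0.20 ± 0.11 that did not pass (edgeR adjusted p = 0.0982). KLF13 (ENSG00000169926, chr15:31326855-31435665, plus strand), a repressor that recruits SIN3A, was at 65.7 to 75.2 CPM in naive and 57.4 to 68.2 CPM in primed H1 controls and at 69.8 to 79.2 and 62.7 to 78.4 CPM in naive and primed H9. The naive and primed values of KLF13 overlapped in both lines and neither difference passed (edgeR adjusted p = 0.102 in H1 and 0.8 in H9). With trends of GC content and length removed, the H1 difference of KLF13 was 0.37 on the log2 scale and passed (edgeR adjusted p = 4.06e-06). It also passed without naive H1 control replicate 1 (edgeR adjusted p = 0.0246). The H9 difference passed narrowly with those trends removed and replicate number added to the fit (edgeR adjusted p = 0.0487).

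KLF2 and KLF17 are left out of the following counts, since only their naive counts brought them into the H1 test. Between naive and primed H1 controls 6 of the other 8 members passed, 5 higher and 1 lower, beside 71.1% of all genes tested, 35% higher and 36.1% lower. The share of members that passed was near the background. In H9 7 of the same 8 members passed, 5 higher and 2 lower, beside 51.5% of all genes tested, 25.4% higher and 26.1% lower. The median log2 change of these 8 members was 0.88 in H1 and 0.76 in H9, and that of all genes was 0 in both.

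**Figure D2:**
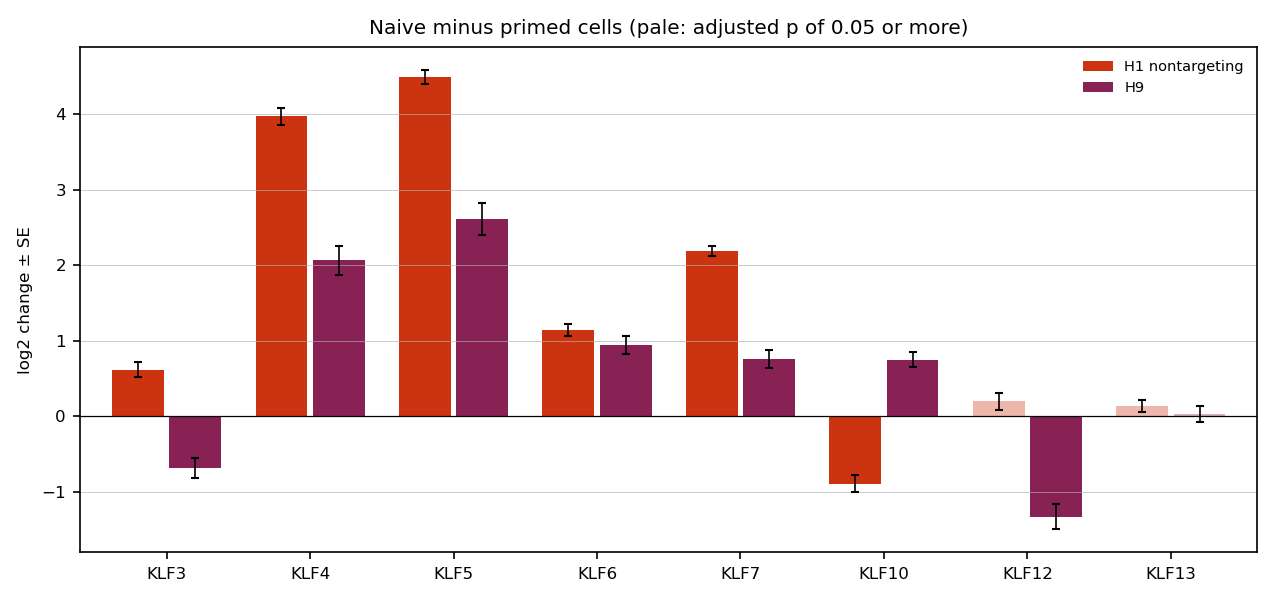
Log2 change from primed to naive (bars, ± SE) of 8 members in H1 controls and in H9, 3 libraries per group, paler where the test was not passed. KLF2 and KLF17 are not drawn because they had 0 to 3 counts in the primed groups. KLF4, KLF5, KLF6 and KLF7 lie above 0 in both lines, and KLF3 and KLF10 lie on opposite sides of 0.

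The naive changes of H1 and H9 were compared directly by the interaction in a 4-group fit, which could be made for the 8 members with more than 3 counts in every group. The difference passed for 6 of the 8, 5 with the higher change in H1, beside 49.9% of all genes tested, 23.6% with the higher change in H1 and 26.2% with the lower. H1 had the higher log2 change by 1.91 ± 0.25 for KLF4 (edgeR adjusted p = 1.31e-07), by 1.89 ± 0.27 for KLF5 (edgeR adjusted p = 7.5e-07) and by 1.44 ± 0.12 for KLF7 (edgeR adjusted p = 2.86e-11). It was also higher by 1.54 ± 0.20 for KLF12 (edgeR adjusted p = 1.3e-07) and by 1.31 ± 0.16 for KLF3 (edgeR adjusted p = 7.87e-08), and for KLF10 the difference was -1.63 ± 0.14 (edgeR adjusted p = 3e-11). KLF6 and KLF13 differed by 0.21 ± 0.14 and 0.11 ± 0.13, which did not pass (edgeR adjusted p = 0.224 and 0.504). Cell line, count table and doxycycline changed together, so their parts cannot be told apart.

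Side by side, with no test, the mean CPM of naive H1 controls over that of naive H9 was 14.9 for KLF5, 5.4 for KLF4, 4.19 for KLF7, 2.91 for KLF12, 1.9 for KLF3, 1.51 for KLF6, 0.958 for KLF13 and 0.28 for KLF10. From pooled counts the ratio was 169 for KLF17, with a 95% counting interval of 46.4 to 1400, and 7.9 for KLF2, with an interval of 5.2 to 12.5. In the primed state the same ratio was 3.83 for KLF5 and between 0.764 and 1.55 for the other 7 members with counts in both lines.

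The marker lists differed between the same naive groups. DPPA3 was at 20 ± 2.71 CPM in the naive H1 controls and 16.7 ± 1.93 CPM in naive H9, and DPPA5 at 7.65 ± 0.963 and 28.7 ± 3.03 CPM (SD, n = 3), whereas the epiblast factor ARGFX was near 0 in naive H9 at 0.0295 ± 0.0512 CPM, as KLF17 was. The 8 primed markers summed to 1650 to 1750 CPM in naive H9 and 897 to 933 CPM in the naive H1 controls. Of these, SFRP2 and THY1 were at 68.6 and 27.4 CPM in naive H9 and at 0.381 and 0.506 CPM in naive H1, ZIC2 was lower in naive H9 (5.35 against 13.1 CPM), and DUSP6 was near 0 in both (0.165 and 0.115 CPM). The primed markers named here made up only a small part of the difference between the sums. SUSD2, a naive marker, had a change from primed to naive that was higher in H1 by 3.14 ± 0.19 on the log2 scale (edgeR adjusted p = 1.46e-14). The summed level of 4 mesoderm markers was 130 to 152 CPM in the naive H1 controls, nearly all of it MIXL1 at 128 ± 11.5 CPM, and 2.63 to 3.67 CPM in naive H9. The 8 trophoblast markers summed to 70.8 to 77.3 CPM and 7.98 to 13.1 CPM in the same groups. The part of these differences in the KLF levels was not tested.

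Levels of different genes were set side by side per gene length, as RPKM, the CPM divided by the deposited gene length in kilobases. The 10 members summed to 141 RPKM in the naive H1 controls, 136 in the ZNF8 knockdown and 51 in naive H9, against 31.8 to 36.6 RPKM in the 5 other groups. KLF5 led in the naive H1 controls with 52 ± 2.16 RPKM (SD, n = 3), 36.9% of the sum, followed by KLF4 at 26 ± 1.2 and KLF7 at 23.7 ± 1.07 RPKM, which lay within about 2 SD of each other. In naive H9 KLF10 led with 16.3 ± 0.466 RPKM, 32% of the sum. KLF6 at 8.44 ± 0.448 and KLF13 at 7.89 ± 0.497 RPKM came next and differed by about their spread. KLF10 also led in primed H9 and in the primed H1 controls, and KLF13 led in the CARHSP1 knockdown and both ectoderm groups. KLF17, at 3.42 ± 0.36 RPKM in the naive H1 controls, was the eighth of the 10 there.

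**Figure D3:**
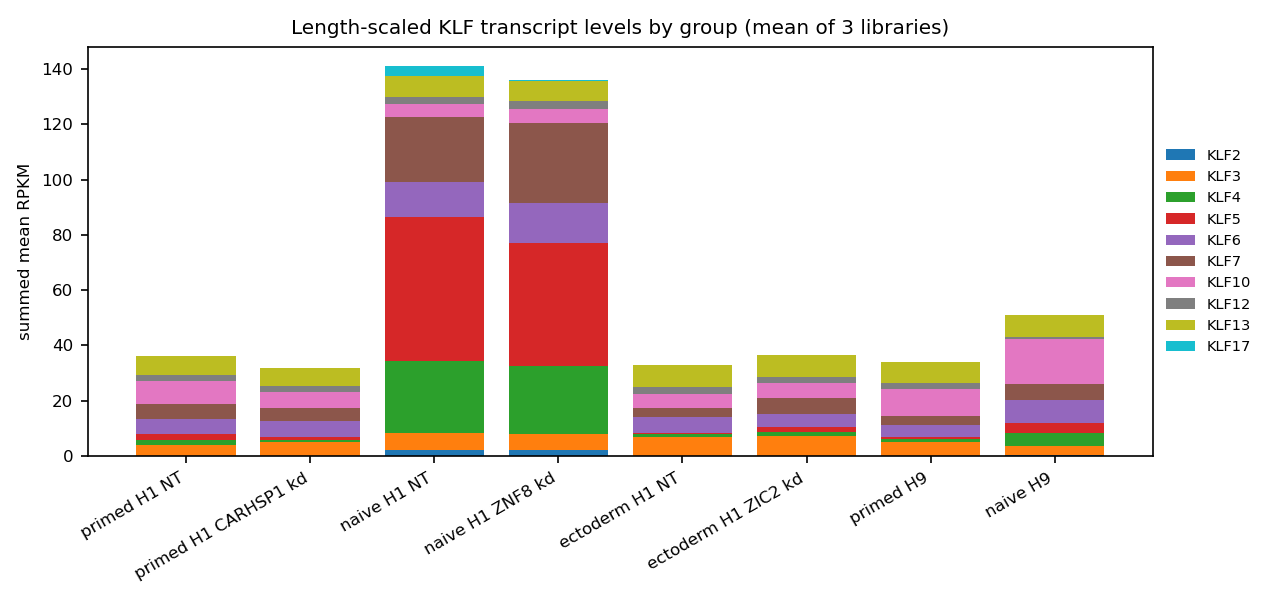
Sum of the mean RPKM of the 10 members in each of the 8 groups, stacked by member (linear axis from 0, means of 3 libraries). The stack is tallest in the naive H1 groups at 141 and 136 RPKM, where KLF5, KLF4 and KLF7 make up most of it, and reaches 51 RPKM in naive H9.

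Day 2 ectoderm was compared with the primed H1 controls, which are also the reference of the naive H1 comparison and of the CARHSP1 knockdown. Of the 8 tested members 5 passed, 1 higher and 4 lower, beside 62.8% of all genes tested, 30.7% higher and 32.1% lower, a share near the background. The median log2 change of the members was -0.36 and that of all genes 0. KLF17 had 0 counts in both groups, and KLF2 0 and 3.

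KLF5 fell the most of the members tested. Its ectoderm values of 2.31, 1.67 and 1.83 CPM were all below the lowest primed value of 5.32 CPM, and the log2 change was -2.12 ± 0.29 (edgeR adjusted p = 3.76e-07). KLF7 was at 33.8, 30.8 and 27.3 CPM in ectoderm, below all 3 primed values, and fell by 0.66 ± 0.10 on the log2 scale (edgeR adjusted p = 1.98e-06). KLF10 was at 19.4, 22.9 and 17.5 CPM, again below every primed value, with a log2 change of -0.69 ± 0.12 (edgeR adjusted p = 1.41e-05).

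KLF3 was the member that rose, to 47.7, 50.4 and 41.2 CPM, a log2 change of 0.81 ± 0.11 (edgeR adjusted p = 1.54e-07). KLF4 was at 5.35, 2.84 and 3.49 CPM, and its highest ectoderm library lay among the primed ones. Its log2 change of -0.72 ± 0.29 passed narrowly (edgeR adjusted p = 0.0342) and did not pass with DESeq2 (adjusted p = 0.0991), nor in edgeR without primed control replicate 2 (adjusted p = 0.248) or without ectoderm control replicate 2 (adjusted p = 0.164) or 3 (adjusted p = 0.077). KLF6, KLF12 and KLF13 did not pass, and their log2 differences were -0.06 ± 0.10, 0.17 ± 0.11 and 0.20 ± 0.09. KLF13 passed with trends of GC content and length removed, at 0.43 on the log2 scale (edgeR adjusted p = 0.000163). It also passed in edgeR with replicate number added to the fit (adjusted p = 0.0318) and with all H1 groups in 1 fit (adjusted p = 0.036). The same held without ectoderm control replicate 2 (edgeR adjusted p = 0.0374) or 3 (edgeR adjusted p = 0.007).

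With the CARHSP1 knockdown in primed H1, 4 of 8 tested members passed, 1 higher and 3 lower, beside 20.2% of all genes tested, 10.3% higher and 9.87% lower. The controls are again those of the naive H1 comparison. The median log2 change of the members was -0.12 and that of all genes 0. KLF10 was at 19, 22.5 and 23.7 CPM in the knockdown against 31.5, 33.9 and 30.7 CPM in the controls, a log2 change of -0.55 ± 0.11 (edgeR adjusted p = 0.000177). KLF4 was at 2.68, 2.23 and 2.94 CPM against 4.75, 8.78 and 5.48 CPM and fell by 1.22 ± 0.27 on the log2 scale (edgeR adjusted p = 0.000924). All KLF4 and KLF10 values of the knockdown lay below all control values.

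KLF5 was at 3.83, 5.27 and 4.21 CPM in the CARHSP1 knockdown and at 8.84, 5.32 and 10.1 CPM in the controls. The highest knockdown library lay just below the lowest control, and the log2 change was -0.91 ± 0.22 (edgeR adjusted p = 0.00289, and 0.0513 without control replicate 3). KLF3 rose from 27.3, 27 and 24.4 CPM to 32.2, 33.6 and 36.8 CPM, a log2 change of 0.39 ± 0.10 (edgeR adjusted p = 0.004). KLF6, KLF7, KLF12 and KLF13 had log2 differences between -0.19 and -0.02 that did not pass. KLF17 had 0 counts in both groups.

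With the labelled ZNF8 knockdown in naive H1, 3 of 10 tested members passed, 1 higher and 2 lower, beside 24.2% of all genes tested, 11.9% higher and 12.3% lower, a share near the background. The controls are the naive libraries of the comparison with primed H1. The median log2 change was -0.03 over the members and -0.01 over all genes. The large change was that of KLF17, which was at 1.9, 1.33 and 1.3 CPM in the knockdown and 10.6, 12 and 9.77 CPM in the controls. That was a fall of 2.81 ± 0.24 on the log2 scale, 7-fold, with no overlap (edgeR adjusted p = 5.38e-12).

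The other naive-state members did not share the size of that change. KLF5 was at 168, 158 and 165 CPM against 199, 193 and 183 CPM, a log2 change of -0.24 ± 0.05 (edgeR adjusted p = 0.000973). KLF4 was at 90.1, 88.2 and 93.9 CPM against 98.8, 90.4 and 96.7 CPM, and KLF2 at 6.78, 6.89 and 5.91 CPM against 5.66, 6.14 and 7.51 CPM. Both overlapped between the groups, with log2 differences of -0.09 ± 0.07 for KLF4 and 0.02 ± 0.20 for KLF2 (edgeR adjusted p = 0.371 and 0.967). KLF7 rose to 270, 259 and 271 CPM from 224, 226 and 208 CPM, a log2 change of 0.27 ± 0.05 (edgeR adjusted p = 0.000122). KLF3, KLF6, KLF10, KLF12 and KLF13 had log2 differences between -0.12 and 0.16 that did not pass.

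In the same libraries 7 of the 8 naive markers, KLF17 among them, passed as lower, beside 12.3% of all genes tested. The median log2 change of the 8 was -2.03, and that of all genes -0.01. DNMT3L, the cofactor of DNA methyltransferases, was at 16.2 ± 0.67 against 53.7 ± 4.52 CPM. TFCP2L1, the marker that did not pass, was at 41.5 ± 1.63 against 45.7 ± 6.61 CPM. The 8 trophoblast markers summed to 20.3 to 27.1 CPM against 70.8 to 77.3 CPM, and the 8 fibroblast markers to 396 to 433 CPM against 305 to 317 CPM. Only 4 of the 8 fibroblast markers were tested, and all 4 passed as higher, beside 11.9% of all genes. COL3A1, LUM and DCN had no count in the knockdown. The part of these shifts in the KLF17 value was not tested.

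With the ZIC2 knockdown in day 2 ectoderm, 2 of 8 tested members passed, both higher, beside 28.1% of all genes tested, 15.3% higher and 12.8% lower, a share near the background. The median log2 change was 0.06 over the members and -0.01 over all genes. KLF5 was at 6.54, 6.19 and 5.97 CPM in the knockdown and 2.31, 1.67 and 1.83 CPM in the controls, a rise of 1.70 ± 0.30 on the log2 scale, 3.25-fold (edgeR adjusted p = 0.000183). KLF7 was at 49.7, 52.8 and 61 CPM against 33.8, 30.8 and 27.3 CPM, a rise of 0.84 ± 0.11 (edgeR adjusted p = 5.57e-06). Neither gene's groups overlapped. These 2 members were also lower in ectoderm than in primed controls, but that comparison shares the ectoderm controls with this one.

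KLF3, KLF4, KLF6, KLF10, KLF12 and KLF13 had log2 differences between -0.21 and 0.22 in the ZIC2 knockdown that did not pass. KLF17 had 0 counts in both groups and KLF2 had 2 and 0. The neural ectoderm markers summed to 532 to 585 CPM in the knockdown and 691 to 816 CPM in the controls, and the fibroblast markers to 228 to 258 and 134 to 149 CPM. Of the 8 neural ectoderm markers 4 were tested, and 1 passed as lower and none as higher, beside 12.8% and 15.3% of all genes. Of the 8 fibroblast markers 4 were tested, and 2 passed as higher and none as lower. HES5, RAX, COL3A1, LUM and DCN had no count in either group. The part of these shifts in the KLF5 and KLF7 values was not tested.

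**Figure D4:**
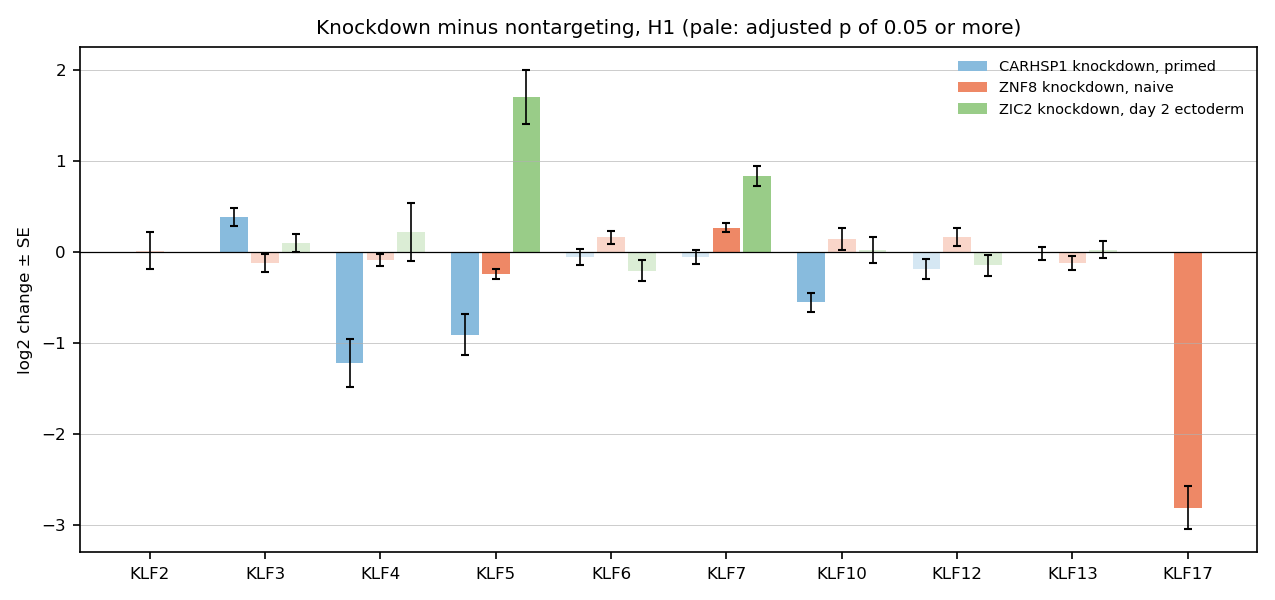
Log2 change from nontargeting control to knockdown (bars, ± SE) of each tested member for CARHSP1 in primed H1, ZNF8 in naive H1 and ZIC2 in day 2 ectoderm, 3 libraries per group. KLF17 at -2.81 for ZNF8 and KLF5 at 1.70 for ZIC2 are the largest bars, paler bars did not pass, and KLF2 and KLF17 have bars for ZNF8 only because they were not tested in the others.

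The ZNF8 and CARHSP1 effects were compared by an interaction in a 4-group fit, again for the 8 members with more than 3 counts in every group. The difference passed for 5 of the 8, 4 positive and 1 negative, beside 21.1% of all genes tested, 11.4% positive and 9.77% negative. The ZNF8 effect minus the CARHSP1 effect was 1.10 ± 0.21 for KLF4 (edgeR adjusted p = 8.04e-05), 0.72 ± 0.17 for KLF5 (edgeR adjusted p = 0.00161) and 0.71 ± 0.16 for KLF10 (edgeR adjusted p = 0.001). It was 0.34 ± 0.08 for KLF7 (edgeR adjusted p = 0.00248) and -0.49 ± 0.14 for KLF3 (edgeR adjusted p = 0.00799). The targeted gene and the cell state differed together, so their parts cannot be told apart.

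The other KLF and SP factors, 17 genes of the same zinc-finger family, showed no common direction. Of the 11 tested in each comparison, 5 were higher and 5 lower in naive than primed H1, beside 35% and 36.1% of all genes, and 4 were higher and 4 lower in H9, beside 25.4% and 26.1%. KLF9, a hormone-responsive repressor, was higher in both lines, by 2.74 ± 0.26 on the log2 scale in H1 (edgeR adjusted p = 1.07e-14) and by 2.61 ± 0.19 in H9 (edgeR adjusted p = 1.71e-09). KLF11, the TGF-beta-inducible relative of KLF10, was higher by 2.17 ± 0.11 in H1 (edgeR adjusted p = 6.96e-27) and by 0.52 ± 0.10 in H9 (edgeR adjusted p = 0.000249). KLF15 was lower by a log2 change of -2.31 ± 0.23 in H1 and -1.11 ± 0.18 in H9 (edgeR adjusted p = 5.27e-14 and 4.05e-05).

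In the CARHSP1 knockdown, with 20.2% of all genes called, 2 of the same 11 were lower and none higher, SP2 at -0.35 ± 0.11 and SP4 at -0.27 ± 0.09. In the ZNF8 knockdown, with 24.2% called, 1 was higher and 4 lower, among them SP8 at -0.65 ± 0.09 and KLF11 at -0.41 ± 0.08. In the ZIC2 knockdown, with 28.1% called, 2 were higher and 1 lower, and between ectoderm and primed controls, with 62.8% called, 4 were higher and 2 lower. One of those, KLF16, at 0.45 ± 0.13 in the first and -0.74 ± 0.12 in the second, changed sign in both with trends of GC content and length removed.

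The naive network partners were 19 naive-state and core pluripotency genes other than the KLFs, of which 7 are also in the naive marker list. In naive H1 15 were higher and 3 lower of 19 tested, beside 35% and 36.1% of all genes. In naive H9 12 were higher and 3 lower of 16, beside 25.4% and 26.1%. Some partners entered these tests only through their naive counts. One was DPPA3 in H9, at 17 CPM in naive and 0.201 CPM in primed cells, scaled within that comparison. The counts of higher partners therefore do not measure an excess over all genes. TFAP2C, a naive regulator, was higher by 2.49 ± 0.07 in H1 and 2.15 ± 0.10 in H9, and TBX3 by 5.18 ± 0.13 in H1 (edgeR adjusted p = 7.52e-41, 2.17e-12 and 3.81e-44). In the CARHSP1 knockdown 11 of 16 tested were lower and none higher, beside 9.87% of all genes lower and 10.3% higher, with a median log2 change of -0.43, and TFAP2C fell by 0.76 ± 0.11 (edgeR adjusted p = 1.55e-06). In the ZNF8 knockdown 9 of 18 were lower and 1 higher, beside 12.3% and 11.9% of all genes. The partner with the smallest p there was NLRP7, a maternal-effect gene, with a log2 change of -1.84 ± 0.06 (edgeR adjusted p = 1.23e-25). In ectoderm 11 of 16 were lower and 4 higher, beside 32.1% and 30.7% of all genes, and in the ZIC2 knockdown 3 of 12 were higher and 2 lower, beside 15.3% and 12.8%.

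Among 17 upstream inputs of KLF genes, the shared LIF receptor subunit IL6ST rose by 3.25 ± 0.09 and its effector STAT3 by 1.34 ± 0.05 on the log2 scale in naive H1 (edgeR adjusted p = 1.07e-40 and 5e-35). LIFR, the other receptor subunit, fell by 1.29 ± 0.12 in naive H1 and by 0.99 ± 0.17 in naive H9 (edgeR adjusted p = 1.87e-15 and 5.54e-05), and the kinase JAK1 fell by 0.87 ± 0.08 and 0.29 ± 0.11 (edgeR adjusted p = 2.63e-14 and 0.0328). In naive H9 IL6ST was higher by 0.87 ± 0.17 and STAT3 by 1.08 ± 0.08 (edgeR adjusted p = 2e-04 and 1.78e-09), and the line difference of IL6ST was 2.37 ± 0.19 (edgeR adjusted p = 6.23e-12). Of the inputs tested, 7 of 17 were higher and 7 lower in naive H1, beside 71.1% of all genes called, and 5 of 16 higher and 6 lower in naive H9, beside 51.5%. SOCS3, a feedback inhibitor of that pathway, rose by 1.29 ± 0.20 in the ZIC2 knockdown and by 0.37 ± 0.10 in the CARHSP1 knockdown, and fell by 0.48 ± 0.13 in the ZNF8 knockdown (edgeR adjusted p = 4.15e-05, 0.0102 and 0.00556). The inputs divided 1 higher and 3 lower of 17 for CARHSP1 (20.2% of all genes called), 3 and 1 of 17 for ZNF8 (24.2%), 3 and 3 of 16 for ZIC2 (28.1%), and 3 and 6 of 17 in ectoderm (62.8%).

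All 15 genes for cofactors and ubiquitin ligases of KLF proteins were tested in each comparison. In naive H1 4 were higher and 6 lower, a share near the 71.1% of all genes called, led by HDAC1 at 1.11 ± 0.05 and HDAC2 at -0.50 ± 0.04. In naive H9 2 were higher and 6 lower, beside 51.5% of all genes called, with HDAC1 at 0.52 ± 0.08 and HDAC2 at -0.62 ± 0.08. The CARHSP1 knockdown had 3 higher and 2 lower (20.2% of all genes called), with the acetyltransferase EP300 at -0.38 ± 0.05. The other counts were 1 higher and 2 lower for ZNF8 (24.2%), 3 and 3 for ZIC2 (28.1%), and 8 and 3 in ectoderm (62.8%), where SIN3A, the corepressor bound by KLF10 and KLF13, was higher by 0.71 ± 0.06.

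Of 16 genes reported as KLF targets in other tissues, 4 were higher and 6 lower in naive H1 of 14 tested, a share near the 71.1% of all genes called, and 4 and 6 of 12 in naive H9, beside 51.5%. CDKN1A, the cell cycle inhibitor activated by KLF4 and KLF6 in other cells, rose by 1.04 ± 0.13 in the CARHSP1 knockdown (edgeR adjusted p = 2.4e-07), and by 2.71 ± 0.13 in the ZIC2 knockdown (edgeR adjusted p = 5.45e-13). TXNIP, reported under KLF control in endothelium, fell by 3.50 ± 0.25 in the ZNF8 knockdown (edgeR adjusted p = 2.3e-14). The targets divided 2 higher and 3 lower of 13 for CARHSP1 (20.2% of all genes called), 2 and 4 of 12 for ZNF8 (24.2%), 4 and 2 of 13 for ZIC2 (28.1%), and 4 and 6 of 13 in ectoderm (62.8%).

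Across the 8 group means of log2(CPM + 0.5), the members fell into patterns that are given as descriptions. The naive H1 groups set most of each value among KLF2, KLF4, KLF5, KLF6, KLF7 and KLF17. Naive H9 held the highest mean of KLF10, 62.2 CPM, and the lowest means of KLF3 and KLF12, 21.4 and 10.1 CPM. KLF2, KLF4, KLF5, KLF6 and KLF7 had Pearson's r between 0.924 and 0.985 with each other, and KLF17 between 0.811 and 0.89 with those 5. KLF10 had r = -0.855 with KLF3 and -0.85 with KLF12, which had 0.752 with each other. KLF13 had no r beyond 0.291 in size with any member.

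Among 13355 genes of at least 5 CPM in some group, the pattern most like that of KLF17 was that of TRIM75 (r = 0.9989 over 8 groups), and TUBB4A had 0.9858. Those most like KLF5 were NPNT (0.9968), TMEM160 and RAB21, and those most like KLF4 were ZNF675 (0.9947), SPTY2D1 and CA13. For KLF7 they were MAP4 (0.9949), CCL2 and FAM83B, for KLF6 PYM1 (0.992), NCEH1 and ATXN1, and for KLF2 HOXB3 (0.9989), a gene without a symbol and SCGB1D2. For the repressors they were CLSTN3 (KLF10, 0.9867), ZNF644, BRD1 and TOX3 (KLF3, 0.9525 to 0.9621), LATS1, ZNF69 and SLC7A2 (KLF12, 0.9591 to 0.975), and SELENOP, DDIT4 and BCORL1 (KLF13, 0.953 to 0.9564). The points of these correlations share libraries and scaling.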

How the data were processed

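The authors deposited whole-number read counts per gene with gene lengths, in 1 table for each line; the submitters' processing notes name HISAT2 and GRCh38. Counter, annotation and strand setting were not given in the sources used here. Of the H1 columns, 27 matched no sample and were not used. Libraries were grouped by the labels, which do not say whether replicates were separate cultures, so p-values measure the spread between these libraries, which may be technical. Symbols were matched for 60401 of 60671 gene IDs. Each comparison used edgeR 4.0.16 (R 4.3.3): filterByExpr, TMM, quasi-likelihood F test, 2-sided, Benjamini-Hochberg over all genes tested, threshold 0.05, with its own groups only. Levels are CPM with TMM factors over all 24 libraries, and RPKM divides them by the deposited lengths. The members and lists were chosen with earlier results of these data known. Named genes were the members, the 3 targets, up to 4 genes per list and comparison with the smallest adjusted p, and the 3 most similar patterns per member. Some of these genes are not reported here. The scripts were tested on simulated data. Alternatives were DESeq2 1.42.0, RLE scaling, no filter, a replicate block, GC and length trends (58394 genes with a GC value, GENCODE 29 transcripts), all H1 groups in 1 fit, and each library left out.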

Additional observations from a re-analysis of the deposited data

Results flagged for a closer look

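Tests of the difference between 2 effects passed for 11 member values (edgeR, adjusted over all genes tested). The change from primed to naive differed between H1 and H9 for 6 members, by 1.31 (KLF3), 1.91 (KLF4), 1.89 (KLF5), 1.44 (KLF7), -1.63 (KLF10) and 1.54 (KLF12) on the log2 scale, H1 minus H9. KLF3 and KLF10 changed in opposite directions in the 2 lines. The effect of the ZNF8 knockdown in naive cells minus that of the CARHSP1 knockdown in primed cells was -0.49 for KLF3, 1.10 for KLF4, 0.72 for KLF5, 0.34 for KLF7 and 0.71 for KLF10. No library was tested as an outlier in these groups of 3, but each was left out in turn, as described below.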

How the results depend on the processing

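Of 956 recomputed member values, 918 kept their direction and their side of the threshold, 6 lost the call, 14 gained it and 18 changed sign, all 18 without a call in either analysis. The number of members called ranged over 3 to 4 (CARHSP1), 3 to 4 (ZNF8), 2 (ZIC2), 7 to 8 (H9), 8 to 9 (naive H1, KLF2 and KLF17 included), 4 to 6 (ectoderm), 6 (line difference) and 5 to 6 (knockdown difference). The labels do not say whether same-numbered libraries are paired. Correlations of same-numbered deviations ran from -0.383 to 0.46, and they cannot settle this because differently numbered libraries were not compared. The replicate block gave 4, 3, 2, 7, 8, 6, 6 and 5 members in the order above. With GC and length trends removed, alone and with the block, the sign changed for KLF13 in the CARHSP1 (0.11, 0.12) and ZIC2 knockdowns (-0.13, -0.12), KLF2 in the ZNF8 knockdown (-0.0079, -0.0059), KLF12 in ectoderm (-0.0925, -0.0886), and KLF16 in the ZIC2 knockdown (-0.0626, -0.0602) and ectoderm (0.17, 0.17). With 1 library left out the sign varied for KLF13 with CARHSP1 (-0.0773 to 0.0395), ZIC2 (-0.055 to 0.16) and in H9 (-0.0665 to 0.0975), for KLF2 with ZNF8 (-0.0696 to 0.14) and for KLF10 with ZIC2 (-0.0751 to 0.14). KLF16 was at 0.45 and -0.74 with calls in the reported fits and without one under these trends. The cause was not tested. Over all genes the CARHSP1 calls fell from 3152 to 2096 without knockdown replicate 2 and to 2045 without control replicate 1. With all groups in 1 fit, H9 has only the fit reported. Of 2172 recomputed values of named list genes, 79 lost their call. Low counts limited KLF2 and KLF17 outside naive cells.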
